A study of Mus musculus with 20 samples.

Results

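The kidney of Nsun6-KO mice was compared with the kidney of WT mice in 4 libraries of a series of 20, taken as the kidney columns of the count table, with 2 libraries for each genotype. Of 55401 genes in the table, the 17550 that passed the filter on low counts were tested. The series holds mRNA sequencing of the heart, kidney, liver, spleen, and small intestine, and the comparison asks what the loss of Nsun6 does to the kidney transcriptome. The KO mice were made in C57BL/6J fertilized eggs with CRISPR/Cas9, which removed exons 3 and 4 of Nsun6 in the whole body, and homozygotes were bred from heterozygotes. The methods give females of 8 weeks as the source of tissue for both genotypes, and the labels name no treatment. The 2 libraries of a genotype are described as biological replicates, but whether each came from its own mouse is not stated, so p-values measure only the spread between these libraries.

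NSUN6 is an RNA methyltransferase that places 5-methylcytosine (m5C) on certain tRNAs and on a limited set of mRNAs. The kidney filters blood in the glomerulus and then recovers glucose, phosphate, amino acids, salt, and water along the nephron, each segment with its own set of membrane transporters. Many of these transporters, and the transcription factors of the circadian clock, follow the time of day, and clock activators and repressors peak at different times.

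No gene passed the test for a difference between KO and WT kidney. With p-values adjusted by Benjamini-Hochberg, the quasi-likelihood test of edgeR gave 0 DEGs (fold change over 2 at an adjusted p under 0.1), which is 0% of the genes tested, and the smallest adjusted p was 1. At an unadjusted p under 0.05, 112 genes remained (0.638%), of which 71 were higher (0.405%) and 41 lower (0.234%) in KO. DESeq2, run without the filter on 28514 genes, gave 0 DEGs and 135 genes at that unadjusted p, and limma-voom gave 0 and 102 on the filtered genes. The outcome turned on the WT libraries. Without WT replicate 1 the same test gave 2938 DEGs in kidney, 2607 of them higher in KO, and without WT replicate 2 it gave 444, with 257 higher in KO. Without KO replicate 1 it gave 2 DEGs and without KO replicate 2 it gave 1. In each of these fits the lone library is assumed to vary like the other pair. The fits without a KO library called Cfd and Ucp1, which had 10 and 0 reads in KO replicate 2, and Gm10095, a processed pseudogene with 6536 reads in KO replicate 1 and 4, 14, and 0 in the other libraries.

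Because nothing passed, the data were read for the size of change that each gene's 95% interval leaves out. The interval is the log2 fold change (KO over WT) plus and minus its standard error (SE) times a t quantile. The quantile uses the total quasi-likelihood degrees of freedom of the gene (median 5.43), which add information shared over genes to the residual ones. Intervals are per gene and not adjusted over genes. The limit of a gene is the end of its interval farther from no change, as a fold in either direction. Its median was 2.90-fold over all genes tested, 2183 genes (12.4%) had the whole interval inside 2-fold, and 12085 (68.9%) had a limit under 4-fold. The limits moved with the libraries that entered. Without KO replicate 1 or 2 the median limit was 4.9 or 5.21-fold over all genes, 4.55 or 4.8-fold for nephron genes, 4.14 or 4.67-fold for transporter genes, and 4.2 or 4.22-fold for clock genes. Without WT replicate 1 or 2 it was 2.57 or 2.29-fold over all genes. The biological coefficient of variation, estimated in common over all genes tested, was 0.457.

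**Figure D1:**
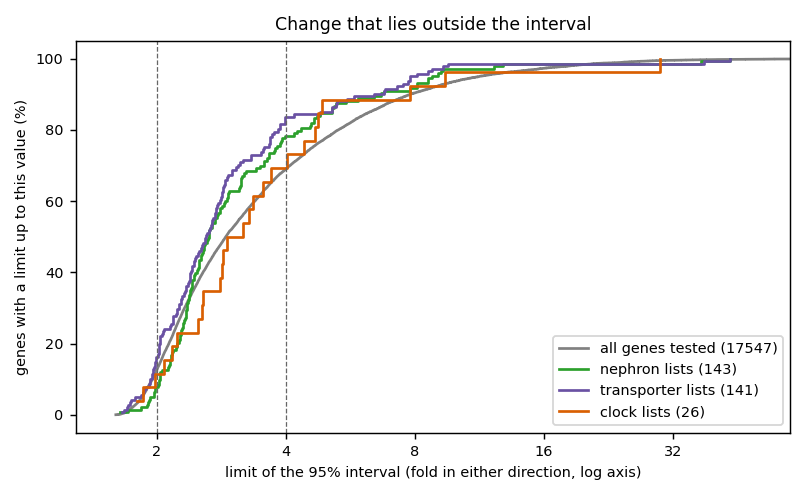
Share of genes (y axis, percent) whose limit is at or under the fold on the x axis (log scale), with 2 and 4-fold dashed, for all genes tested with an interval and for the 143 nephron, 141 transporter, and 26 clock genes. The curves run close together, with medians of 2.90, 2.64, 2.61, and 3.05-fold.

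Values per library are CPM (read counts scaled to a common library size) after TMM normalization and are given in the order WT replicate 1, WT replicate 2, KO replicate 1, KO replicate 2. Total counts were 25988075, 25327492, 25220170, and 24772312. A count of 0 in a library allows a level of up to 0.10, 0.139, 0.118, and 0.120 CPM in this order, which covers counting error only. In bulk tissue, fewer cells of a type and less RNA per cell cannot be told apart.

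Nsun6 (ENSMUSG00000026707, chr2:14995131-15055069 of GRCm38, minus strand) had 6.32, 6.55, 4.38, and 3.71 CPM. The KO pair lay below the WT pair. The log2 fold change was -0.67 (SE 0.43, 95% interval -1.75 to 0.41, adjusted p = 1 by edgeR with Benjamini-Hochberg adjustment), which leaves out a change of more than 3.37-fold. These counts do not check the genotype, because the deleted exons make up 3.8% or 4.71% of the 5006 merged exon bases of the gene, depending on whether exons are numbered along its transcripts with 11 or with 12 exons. The exon of 80 bases at chr2:15042227-15042306 is removed under either numbering, and its sequence in GRCm38, on the minus strand, is shown whole for that reason. It is part of the 190 or 236 deleted exon bases, and the other deleted exon, which depends on the numbering, is not shown.
Nsun6 deleted exon: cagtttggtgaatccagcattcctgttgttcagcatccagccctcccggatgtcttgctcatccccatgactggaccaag
Of 14 genes of the m5C machinery, Nsun6 itself among them, 4 had a higher and 10 a lower fitted level in KO (median log2 fold change -0.14, against -0.03 over all genes). Nsun2, the main m5C writer of mRNA, had a limit of 1.67-fold, and Alyref, an mRNA export adaptor that binds m5C, one of 1.89-fold.

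The tissue label was checked against defining markers, and each was present in all 4 libraries. Umod, the urinary protein of the thick ascending limb, had 1045, 2084, 2607, and 2089 CPM. The markers were far from even between the WT libraries. Slc34a1, the sodium-phosphate cotransporter of the proximal tubule, had 4874, 582, 3068, and 1699 CPM. Slc12a3, the thiazide-sensitive cotransporter of the distal convoluted tubule, had 4213, 253, 1951, and 1839 CPM. In WT replicate 2 both were lower than in every other library, and both KO libraries lay between the WT pair. Aqp2, the vasopressin-regulated water channel of principal cells, was likewise lowest in WT replicate 2, with 134, 23.9, 189, and 118 CPM.

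Over the 10 lists of nephron cells, all 143 genes passed the filter, and none was a DEG. In KO, 87 had a higher and 56 a lower fitted level, and the median of their log2 fold changes was 0.13 against -0.03 over all genes, and -0.0049 with a correction for GC content in kidney. Both KO libraries lay above both WT libraries for 23 genes (16.1% of the list, against 10.3% of all genes) and below for 10 (6.99%, against 11.2%). The whole interval lay inside 2-fold for 11 genes (7.69%, against 12.4% of all genes). For 112 genes (78.3%) a change of over 4-fold was left out. Without a WT library the number inside 2-fold was 62 or 73, and without either KO library 0.

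**Figure D2:**
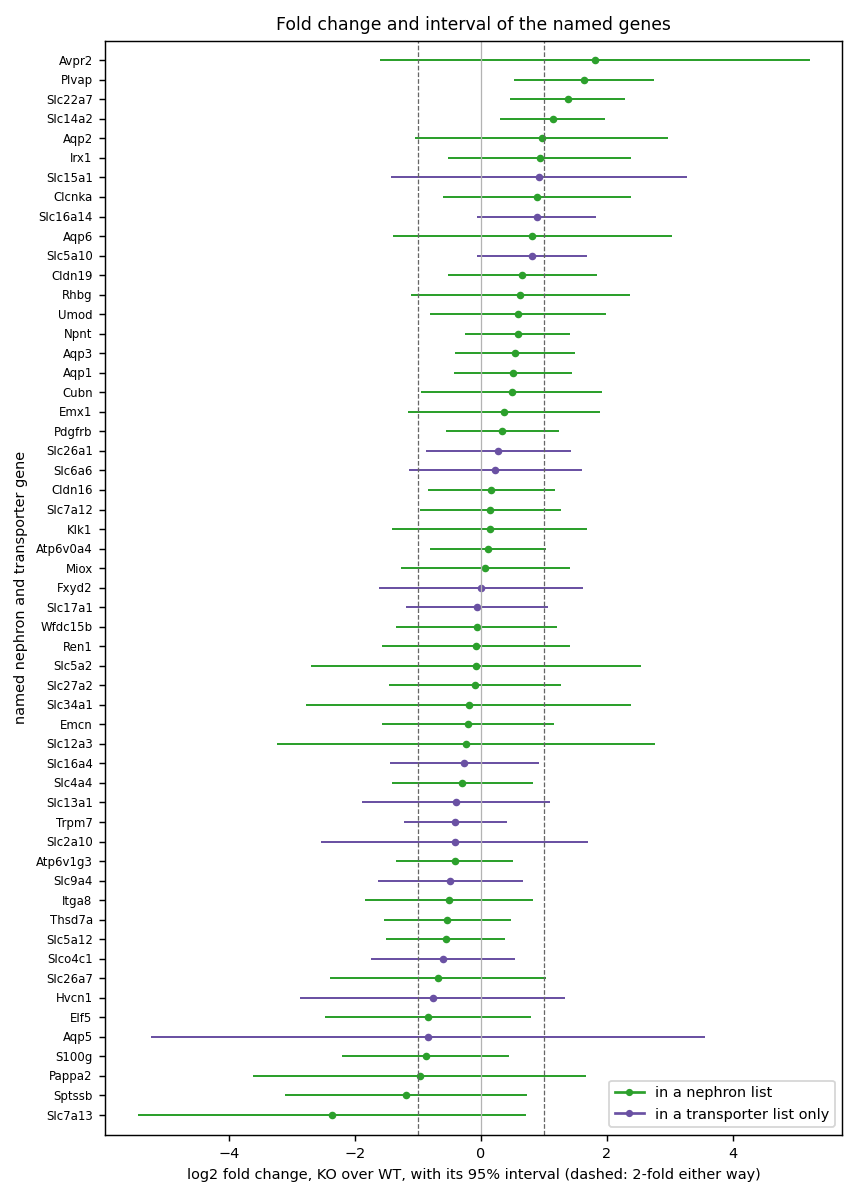
Log2 fold change of KO over WT kidney (x axis) with its 95% interval (bars) for the nephron and transporter genes named by rule (y axis), with the nephron lists in green, other transporters in purple, and 2-fold dashed. Most intervals cross 0, and those of Slc34a1 (limit 6.78-fold), Slc12a3 (9.32-fold), and Slc7a13 (43.5-fold) are among the wide ones.

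In the glomerulus, the 16 podocyte genes had a median limit of 2.36-fold. Npnt, a matrix ligand that podocytes lay down, had 122, 165, 202, and 228 CPM, both KO libraries above both WT libraries (log2 fold change 0.58, SE 0.33, limit 2.64-fold). Among 12 genes of glomerular and vascular endothelium, 10 had a higher fitted level in KO (median 0.23). Plvap, which forms the diaphragms of fenestrated endothelium, had 32.5, 29.4, 60.1, and 132 CPM. Both KO libraries were higher than both WT libraries, and KO replicate 2 was higher than KO replicate 1. Its log2 fold change was 1.64 (SE 0.44, 95% interval 0.53 to 2.74), and its adjusted p of 1 did not pass. Emcn, a sialomucin of the same cells, had 88.7, 247, 128, and 162 CPM with the KO pair between the WT pair (log2 fold change -0.21, SE 0.54). Of 7 mesangial and renin cell genes, 5 had a lower fitted level. Ren1, which encodes renin, had 23.5, 77.3, 51.9, and 43.8 CPM and a limit of 2.93-fold.

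In the early proximal tubule, 11 of 21 genes had a higher and 10 a lower fitted level (median 0.02), and the median limit was 2.65-fold. Hnf4a, the transcription factor that keeps proximal tubule identity, had 464, 543, 539, and 481 CPM. The genotypes overlapped, and a change of over 1.91-fold was left out. Miox, which oxidizes myo-inositol, had 2465, 3392, 3564, and 2577 CPM, with overlapping genotypes (log2 fold change 0.07, SE 0.53, limit 2.63-fold). Slc5a12, a lactate cotransporter, had 414, 517, 274, and 357 CPM, both KO libraries below both WT libraries, with a log2 fold change of -0.56 (SE 0.37). In the late proximal tubule, 11 of 15 genes had a higher fitted level (median 0.16). Slc22a7 (OAT2), an organic anion transporter, had 73.3, 55.0, 202, and 131 CPM. Both KO libraries stood above both WT libraries (log2 fold change 1.37, SE 0.36, 95% interval 0.48 to 2.27, adjusted p = 1). Acsm3, a mitochondrial acyl-CoA synthetase, stood below, with 6.18, 7.67, 3.27, and 3.11 CPM (log2 fold change -1.12, SE 0.44). Slc7a13, an amino acid transporter of this segment with higher levels in male mice, had 0.802, 14.5, 1.26, and 1.67 CPM, so that WT replicate 2 alone was high and the limit was 43.5-fold.

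In the loop of Henle, 15 of 21 genes of the thick ascending limb and macula densa had a higher fitted level in KO, both KO libraries lay above both WT libraries for 9 (against 10.3% of all genes), and below for 0 (against 11.2%). The list had a median of 0.19 on the log2 scale. Umod had a log2 fold change of 0.59 (SE 0.55) and a limit of 3.93-fold, with WT replicate 1 well below the other libraries. Slc12a1 (NKCC2), the loop-diuretic target, had 1394, 1415, 1512, and 1588 CPM. The 4 libraries lay close together, and a change of over 2.35-fold was left out. Of 6 thin limb genes, 5 had a higher fitted level (median 0.59). Slc14a2, the urea transporter that also serves the inner medullary collecting duct, had 16, 18.4, 36.3, and 39.3 CPM. Its KO pair lay above its WT pair with little spread within either, and the log2 fold change was 1.14 (SE 0.33, 95% interval 0.32 to 1.95, adjusted p = 1). Aqp1, the constitutive water channel, had 427, 503, 658, and 665 CPM (log2 fold change 0.51, SE 0.37, limit 2.70-fold). Plvap, Slc22a7, and Slc14a2 were the 3 nephron genes higher, and Acsm3 the 1 lower, of 143 in KO at an unadjusted p under 0.05, against 0.405% and 0.234% of all genes.

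In the distal nephron, 4 of 14 genes of the distal convoluted tubule had the whole interval inside 2-fold, the most of any nephron list. Sgms2, a sphingomyelin synthase, had 117, 106, 107, and 112 CPM and the smallest limit of the nephron genes, 1.64-fold. S100g (calbindin-D9k), a vitamin D target, had 1991, 3473, 1450, and 1517 CPM, with the KO pair below the WT pair (log2 fold change -0.88, SE 0.52, limit 4.56-fold). Calb1, the larger calbindin of the same cells, had 1181, 1312, 961, and 1034 CPM and a limit of 2.57-fold. Slc12a3 stood at the other end of this list, with a limit of 9.32-fold. The 12 principal cell genes had the widest limits of the nephron lists (median 3.87-fold), and 9 had a higher fitted level in KO (median 0.47). The subunits of the epithelial sodium channel were uneven between the WT libraries, Scnn1a with 71.9, 8.97, 87.4, and 53.4 CPM, Scnn1b with 57.2, 16.2, 56.3, and 43.0 CPM, and Scnn1g with 45.4, 21.8, 42.3, and 28.6 CPM. WT replicate 2 was the lowest library for each, and the limits were 8.60, 3.99, and 2.39-fold. Of 19 intercalated cell genes, 12 had a higher fitted level (median 0.11). Slc26a4 (pendrin), the chloride-bicarbonate exchanger of non-type A intercalated cells, had 101, 75.2, 91.8, and 88.0 CPM, and a change of over 1.71-fold was left out.

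Of the 144 genes on the 9 transporter lists, 141 were tested and none was a DEG, while Cldn14, Slco1a1, and Aqp8 did not pass the filter. Some of these genes are also on the nephron lists. In KO, 85 had a higher and 56 a lower fitted level (median 0.07, and -0.0041 in kidney without KO replicate 1), 16 had both KO libraries above and 8 both below the WT pair (against 10.3% and 11.2% of all genes). The interval lay inside 2-fold for 23 (16.3%) and under 4-fold for 118 (83.7%). Without a WT library 70 or 75 lay inside 2-fold, and without a KO library 0. Over all 319 solute carrier genes tested, the corresponding numbers were 51 (16%) and 243 (76.2%).

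The lists differed in how much change they left out. Carboxylate carriers had the smallest median limit, 2.29-fold, and water and urea channels the largest, 3.73-fold. Clcn5, the endosomal chloride-proton exchanger that protein reabsorption needs, had 106, 128, 119, and 116 CPM and the smallest limit of the transporter genes, 1.66-fold. Xpr1, the phosphate exporter, had 93.3, 117, 105, and 109 CPM and a limit of 1.68-fold. Neither gene had separate genotypes. Slc5a2 (SGLT2), which recovers most filtered glucose, had 602, 51.4, 340, and 279 CPM. The KO libraries lay between the WT libraries, which differed over 10-fold, and changes up to 6.42-fold were not left out. Slc5a10 (SGLT5), a mannose and fructose carrier, had 42.6, 43.9, 93.4, and 58.2 CPM, both KO libraries above an even WT pair (log2 fold change 0.81, SE 0.34, 95% interval -0.05 to 1.67). Slc16a14, of the monocarboxylate carrier family, had 44.0, 25.4, 62.7, and 65.4 CPM (log2 fold change 0.88, SE 0.37). Fxyd2, the regulatory gamma subunit of the sodium pump, had 2159, 5316, 3790, and 3711 CPM and a log2 fold change of 0.01 (SE 0.64), with an even KO pair inside a wide WT pair. Slc4a4, the basolateral sodium-bicarbonate cotransporter, had 1046, 1481, 1026, and 1026 CPM, with the KO pair just below the WT pair (limit 2.65-fold). Trpm7, a magnesium-permeable channel kinase, had 340, 303, 240, and 246 CPM (log2 fold change -0.41, SE 0.32, limit 2.32-fold). Its genotypes did not overlap, and its interval included 0.

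All 26 clock genes were tested and none was a DEG. In KO, 10 had a higher and 16 a lower fitted level (median log2 fold change -0.13). Leaving out WT replicate 1 turned this median to 0.74, leaving out KO replicate 2 turned it to 0.07, and leaving out WT replicate 2 gave -0.30, so its direction rested on single libraries. The KO pair was above the WT pair for 3 genes and below for 3, near the shares of 10.3% and 11.2% over all genes. For 3 genes (11.5%) the interval lay inside 2-fold, among them Clock (limit 1.86-fold) and Hlf (1.99-fold). Without a WT library 6 or 11 clock genes lay inside 2-fold, and without a KO library 0. A limit under 4-fold was reached by 18 (69.2%, against 68.9% of all genes), and the median limit was 3.05-fold.

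Among the activators, Arntl (BMAL1), the partner of CLOCK, had 2.77, 1.35, 3.90, and 7.29 CPM. Both KO libraries were higher than both WT libraries, with a log2 fold change of 1.43 (SE 0.61, 95% interval -0.10 to 2.97) and a limit of 7.81-fold. Clock itself had 99.5, 121, 88.2, and 113 CPM with overlapping genotypes. Rora, which activates Arntl, had 79.2, 120, 63.2, and 75.6 CPM and a limit of 2.57-fold, the KO pair below the WT pair. Npas2 was listed at 0.769, 0, 0.986, and 1.08 CPM, too low to leave out less than 29.9-fold. Among the repressors, Nfil3 had 2.67, 3.76, 7.57, and 5.78 CPM, with the KO pair above the WT pair (log2 fold change 1.05, SE 0.47, 95% interval -0.12 to 2.23). Nr1d2 (REV-ERB beta) had 265, 261, 194, and 209 CPM, with the KO pair below an even WT pair (log2 fold change -0.38, SE 0.31, limit 2.23-fold). Nr1d1 (REV-ERB alpha), its close relative and the other repressor of Arntl, had 50.1, 2.51, 35.2, and 27.3 CPM. WT replicate 2 was far below the other libraries, and the limit was 9.42-fold (log2 fold change 0.25, SE 1.19). The limits of the period genes, which encode the core feedback inhibitors, were 4.41-fold for Per1, 3.70-fold for Per2, and 4.85-fold for Per3.

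**Figure D3:**
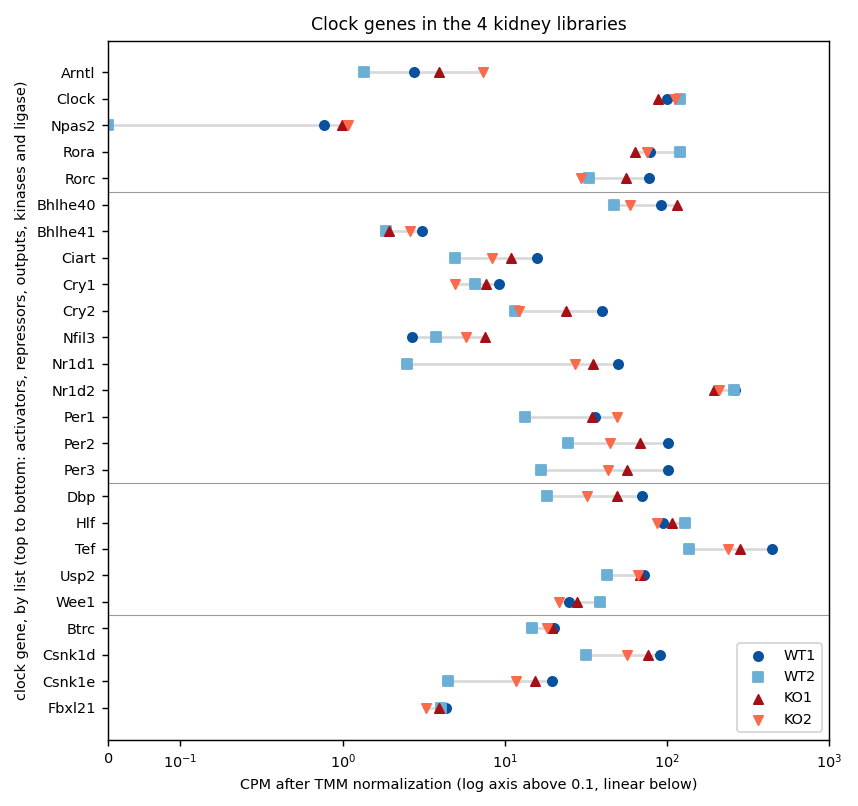
CPM (symmetrical log axis) of 25 of the 26 clock genes in the 4 kidney libraries, 1 point per library. WT replicate 2 lies lowest for Nr1d1 (2.51 CPM) and for Per1 (13.4), Per2 (24.5), and Per3 (16.7), whereas Clock and Nr1d2 lie close together in all libraries.

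The clock genes were uneven between the WT libraries. The log2 ratio of WT replicate 1 over WT replicate 2 was positive for 20 of the 26 genes (against 49.1% of all genes), with a median of 0.98 against -0.03 over all genes, and 13 were over 2-fold higher in WT replicate 1 (against 25.1%) and 0 in WT replicate 2 (against 12.2%). Repressors had a median log2 ratio of 1.43, with 10 of 11 higher in WT replicate 1, activators 1.0, outputs 0.75, and the kinases and ligases 0.46. Per3 had 102, 16.7, 56.9, and 43.3 CPM and Per2 had 101, 24.5, 68.2, and 44.5 CPM. Dbp, a D-box activator that is a direct CLOCK target, had 70.6, 18.1, 48.9, and 32.1 CPM, and its relative Tef had 445, 137, 283, and 240 CPM. WT replicate 1 was the highest and WT replicate 2 the lowest library for each of these. Of the 5 activators, 3 were higher in WT replicate 1, among them Arntl, with 83 and 29 reads in the WT libraries. The clock genes had a median transcript GC content of 52.1%. The time of day of dissection was not used as a factor, so its part in these values was not tested. With a correction for GC content, chosen after seeing the data, the clock median was 0.71 against -0.16 over all genes, and the medians were 0.91 for repressors, 0.95 for activators, 0.13 for outputs, and 0.68 for the kinases and ligases.

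Promoter sequence from RefSeq (GRCm38.p6, 250 bases before to 50 after the start) was matched for 19 of the 26 clock genes. The E-box CACGTG, which reads the same on both strands and is the letters that CLOCK and BMAL1 are known to bind, was in 5 of 19 (26.3%) and in 1957 of 27025 promoters (7.24%). The D-box TTATGTAA, searched on both strands and bound by DBP, TEF, HLF, and NFIL3, was in 1 of 19 (5.26%) and in 258 promoters (0.955%). A match is a description and not a site of binding. The stretches below are shown because these genes were over 2-fold higher in WT replicate 1 than in WT replicate 2, with the box in capitals, each 5′ to 3′ on the strand of its gene. Ciart and Per3 had further matches of the same box, and only the match farthest from the start is shown for them. Cry1 and Bhlhe41 also held the E-box but were not over 2-fold apart (log2 ratio 0.49 and 0.70 in the WT pair). Their stretches are not shown.
Ciart E-box, chr3:95882309-95882374, minus strand: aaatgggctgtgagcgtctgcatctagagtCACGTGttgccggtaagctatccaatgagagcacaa
Per1 E-box, chr11:69098753-69098818, plus strand: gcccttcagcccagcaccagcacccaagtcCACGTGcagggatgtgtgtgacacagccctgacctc
Tef E-box, chr15:81802516-81802581, plus strand: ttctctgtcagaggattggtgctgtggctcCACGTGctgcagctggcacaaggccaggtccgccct
Per3 D-box, chr4:151044833-151044900, minus strand: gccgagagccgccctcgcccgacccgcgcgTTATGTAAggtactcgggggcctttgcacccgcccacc
Ciart, a repressor of CLOCK and BMAL1, had 15.8, 4.93, 10.9, and 8.33 CPM, and Per1 had 36.1, 13.4, 34.4, and 49.5 CPM. WT replicate 2 was the lowest library for both, and KO replicate 2 was the highest for Per1.

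Over all genes, the WT libraries were the least alike of the 6 pairs of kidney libraries. Pearson's r of log2 CPM over the 17550 genes, which are not independent replicates, was 0.893 for the WT pair, 0.978 for the KO pair, and between 0.932 and 0.971 for the pairs of different genotype. WT replicate 1 was over 2-fold higher for 4408 genes (25.1%) and WT replicate 2 for 2143 (12.2%), and with the GC correction the split was even, with 3135 and 3178 genes. In the KO pair 546 and 821 genes differed that much. WT replicate 2 stood more than 2-fold below each of the other 3 libraries for 2685 genes (15.3%) and above each for 226. The corresponding numbers were 331 and 319 for WT replicate 1, 160 and 18 for KO replicate 1, and 120 and 68 for KO replicate 2. Both KO libraries lay between the WT libraries for 77.4% of the 4408 genes and for 72.9% of the 2143.

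Among genes with a mean WT level of 1 CPM or more, the largest WT differences were in genes near 0 in WT replicate 2. Atg9a, a lipid scramblase that autophagy needs, had 24.4, 0, 14.7, and 12.3 CPM, at least 175-fold higher in WT replicate 1 than the level a count of 0 allows per library (3 counts). Zfp335, a zinc finger transcription factor, had 20.4, 0, 9.38, and 11.9 CPM, at least 146-fold higher. Both were plainly present in the KO libraries. Piezo1, a mechanosensitive cation channel, had 48.1, 0.325, 23.3, and 20.3 CPM, and Cdc42bpb, a kinase that acts downstream of CDC42, had 62.2, 0.511, 35.8, and 31.9 CPM. In the other direction, Slc7a13 was 16.6-fold and Lcn2, the injury marker NGAL, 16.1-fold higher in WT replicate 2 on the log2 scale with a prior count of 2. Lcn2 had 0.802, 14.1, 8.48, and 5.50 CPM, and WT replicate 1 was the low library. Slc22a26, an organic anion transporter, had 15, 177, 59.1, and 128 CPM, and Serpina1d, an alpha-1 antitrypsin gene of a near-identical family whose reads may be split between members, had 35.5, 342, 40.5, and 75.2 CPM.

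The direction of the difference between the WT libraries moved with base composition. With the GC correction, the share of genes over 2-fold apart in the WT pair went from 37.3% to 36%. Genes were put into 10 bins of equal number by transcript GC content. In the lowest bin (21.8% to 41.5% GC) the median log2 ratio of WT replicate 1 over WT replicate 2 was -0.36. In the highest bin (57.9% to 78.3%) it was 1.52. The KO pair ran from -0.13 to 0.24 over the same bins. Set against the KO mean, WT replicate 2 ran from 0.48 to -1.25. The slope per 10 points of GC content was -0.60 on the log2 scale in WT replicate 2, against 0.24 in WT replicate 1, 0.28 in KO replicate 1, and 0.08 in KO replicate 2. The 16 libraries of the other tissues had slopes between -0.19 and 0.15. The 2685 genes low in WT replicate 2 had a median GC content of 55.9%, and the 226 high there 46.9%. The share of genes with the whole interval inside 2-fold was 22.8% in the bin from 44% to 46.1% GC and 2.74% in the highest bin, where the median limit was 4.43-fold.

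**Figure D4:**
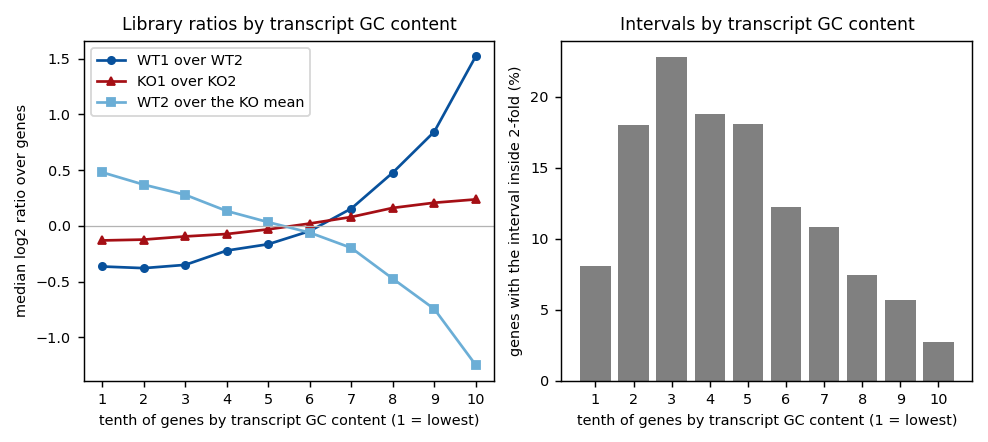
Left, median log2 ratio between libraries (y axis) in 10 bins of transcript GC content (x axis). Lines are the WT pair (WT1 over WT2), the KO pair, and WT replicate 2 over the KO mean. Right, percent of genes with the whole 95% interval inside 2-fold in the same bins; the WT pair rises to 1.52 in the highest bin while the share falls to 2.74%.

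Genes of the same cells did not all lie on the same side. Of 16 podocyte genes, 6 were higher in WT replicate 1 and 10 in WT replicate 2. Nphs1 (nephrin), of the slit diaphragm of podocytes, with 56.4% GC, had 24.1, 4.37, 16.5, and 10.8 CPM and was lowest in WT replicate 2. Npnt, also of podocytes, with 50.2% GC, had its lowest level in WT replicate 1. In the distal convoluted tubule, Slc12a3 (53.7% GC) was lowest in WT replicate 2, whereas Calb1 (36.8% GC) was highest there. GC content did not order every gene. Fxyd2, with 59.4% GC, was highest in WT replicate 2, and after the GC correction 36.0% of genes still differed over 2-fold between the WT libraries, against 37.3% before, now about evenly in both directions. Coding sequence from the middle of the longest coding exon in GRCm38 shows the base composition of the 2 genes with the largest difference in each direction, among those with a mean WT level of at least 1 CPM, 5′ to 3′ on the strand of the gene, with G and C in capitals.
Atg9a, chr1:75186505-75186624, minus strand: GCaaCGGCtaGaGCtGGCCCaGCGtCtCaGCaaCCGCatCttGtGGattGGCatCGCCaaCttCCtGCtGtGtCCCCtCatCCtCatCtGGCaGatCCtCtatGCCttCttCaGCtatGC
Zfp335, chr2:164894653-164894772, minus strand: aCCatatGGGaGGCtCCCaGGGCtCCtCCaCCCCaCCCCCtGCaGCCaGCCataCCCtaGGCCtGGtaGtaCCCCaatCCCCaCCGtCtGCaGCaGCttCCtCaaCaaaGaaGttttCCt
Slc7a13, chr4:19819087-19819206, plus strand: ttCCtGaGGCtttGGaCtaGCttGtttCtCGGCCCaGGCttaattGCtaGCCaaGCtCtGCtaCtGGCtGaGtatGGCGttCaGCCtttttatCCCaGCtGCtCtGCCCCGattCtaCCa
Lcn2, chr2:32387589-32387708, minus strand: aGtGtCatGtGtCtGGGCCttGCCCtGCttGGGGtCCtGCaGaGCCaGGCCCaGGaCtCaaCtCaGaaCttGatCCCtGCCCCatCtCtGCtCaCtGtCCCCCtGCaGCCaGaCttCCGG
These windows hold 56.7%, 60%, 52.5%, and 61.7% GC, and the whole coding sequences 58.1%, 59.3%, 44.1%, and 53.0%. The Slc7a13 and Lcn2 windows are thus clearly richer in GC than their coding sequences, whereas those of Atg9a and Zfp335 lie close to theirs.

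Transcript classes also differed between the WT libraries. Antisense genes had a median log2 ratio of WT replicate 1 over WT replicate 2 of 1.02 (637 genes), genes that await experimental support (TEC) 1.14 (418), processed transcripts 0.68 (286), and lincRNAs 0.40 (563). Protein-coding genes had -0.08 (14326) and processed pseudogenes -0.75 (853). The lincRNA share of all counts was 1.21%, 0.475%, 0.707%, and 0.933%, and 24434, 22039, 23093, and 24254 genes had a read. WT replicate 1 was highest and WT replicate 2 lowest on both measures. The 10 most abundant genes held 7.21%, 10.4%, 9.42%, and 10.3% of counts, and rRNA-class genes 0.10%, 0.0529%, 0.0743%, and 0.668%, so that KO replicate 2 was high for rRNA. The median log2 ratio of the WT pair ran from -0.48 in the shortest of 5 equal transcript-length bins to 0.15 in the longest. RNA quality and library preparation dates were not used here, and their part in the differences was not tested.

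Lists of other cells and of physiological states separated the WT libraries as well. All 10 hepatocyte-type genes were higher in WT replicate 2 (median log2 ratio -1.61), with a summed level of 99.8, 345, 221, and 183 CPM. Their most abundant gene, Ttr (transthyretin), had 32.9, 95.4, 100, and 70.3 CPM. Alb (albumin) had 31.6, 111, 51.9, and 37.3 CPM, and no list gene was at 0 in all libraries. All 10 fibroblast and matrix genes were higher in WT replicate 2 (-1.41), with summed levels of 201, 580, 241, and 349 CPM and Dcn (decorin), the most abundant, at 69.5, 225, 66.9, and 97.0 CPM. The same held for all 10 genes of tubule injury (-1.28), led by Spp1 (osteopontin), for all 7 smooth muscle genes (-1.23), and for all 7 red cell genes (-1.04). WT replicate 1 was the lowest library in summed level for each of these lists. Of 12 genes of fasting and lipid oxidation, 11 were higher in WT replicate 2 (-1.46), among them Cyp4a14, an omega-hydroxylase under PPAR alpha, with 325, 1459, 868, and 1057 CPM. Of the 11 glucocorticoid targets, 10 were higher there too (-1.07). All 7 genes with sex-biased levels in mouse kidney were higher in WT replicate 2 (-1.99), a list not split by the direction of the bias. The most abundant, Kap, a protein of the proximal tubule under androgen control, had 17474, 43846, 29243, and 37030 CPM. Xist was abundant in every library (1732, 994, 1047, and 1310 CPM), and the Y-linked Ddx3y was at 0, 0, 0, and 0.120 CPM. In the clock, principal cell, and intercalated cell lists, by contrast, most genes were higher in WT replicate 1, with 8 of 12 principal cell genes (median 0.95) and 12 of 19 intercalated cell genes (median 0.55). Members of these lists also went the other way, such as Atp6v0a4, a proton pump subunit of intercalated cells, with 275, 389, 365, and 354 CPM. Their part in the genotype comparison was not tested.

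**Figure D5:**
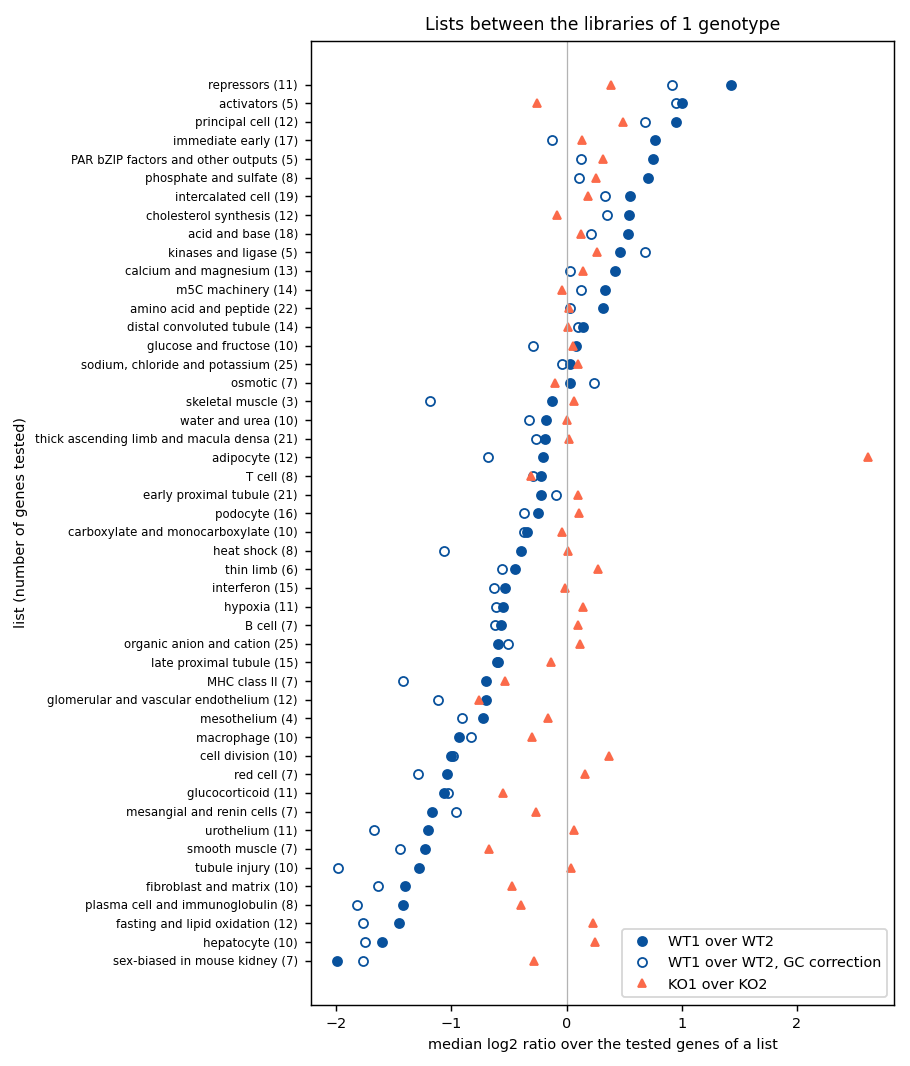
Median log2 ratio (x axis) over the genes of each list (y axis) for WT replicate 1 over WT replicate 2, for the same pair after GC correction, and for KO replicate 1 over KO replicate 2. Clock repressors lie to the right for the WT pair (1.43) and hepatocyte (-1.61) and sex-biased genes (-1.99) to the left.

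The directions of these list medians were compared over 8 settings of scaling, filter, prior count, and GC correction. The clock median stayed between 0.71 and 1.41, that of hepatocyte genes between -1.75 and -1.17, that of fibroblast genes between -1.64 and -0.97, and that of fasting genes between -1.77 and -1.02. Scaling to library totals without TMM factors moved the median of all genes from -0.03 to 0.40. Relative to the median of all genes under the same setting, podocyte genes stayed between -0.25 and -0.13, thick ascending limb genes between -0.19 and -0.07, and immediate early genes between 0.04 and 0.81. Not taken relative to it, their medians crossed 0, running from -0.37 to 0.19, from -0.26 to 0.25, and from -0.12 to 1.20 in this order. Early proximal tubule genes ran from -0.23 to 0.07 in relative terms and so had no fixed direction. Glucose and fructose carriers (-0.13 to 0.20) and the transporter lists together (-0.0027 to 0.075) were among other lists that changed sign in these terms.

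The genes with the smallest p between genotypes, taken from those whose genotypes did not overlap, were few and mostly low. Hdc, histidine decarboxylase, which makes histamine, had 10.5, 6.83, 53.4, and 35.7 CPM. Both KO libraries stood above both WT libraries, with a log2 fold change of 2.36 (SE 0.41, 95% interval 1.33 to 3.39) and an adjusted p of 1 by edgeR. C8a, a complement component, had 33.4, 27.8, 70.6, and 92.6 CPM (log2 fold change 1.42, SE 0.31), and Acot7, an acyl-CoA thioesterase, had 24.8, 29.7, 61.8, and 89.7 CPM (log2 fold change 1.47, SE 0.33). The immunoglobulin segments Ighv1-81 and Igkv10-96, whose reads may be shared with related segments, had 0, 0, 0.789, and 1.83 CPM and 0.0669, 0.139, 0.946, and 1.87 CPM. In the other direction, Igfbp6, an IGF-II binding protein, had 4.35, 9.02, 1.18, and 0.558 CPM (log2 fold change -2.93, SE 0.65), and Retnla, a product of alternatively activated macrophages and of fat, had 2.84, 6.04, 0.552, and 0.0797 CPM. Myoc (myocilin) had 0.802, 1.16, 0.0789, and 0 CPM, the lncRNA Rian had 2.07, 2.28, 0.394, and 0.558 CPM, and Zfp992 had 4.45, 4.69, 1.5, and 1.24 CPM. None of the 10 genes passed the adjusted threshold.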

How the data were processed

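The labels gave the tissue, genotype, and replicate number of each library. The authors trimmed reads with cutadapt, mapped them with HISAT2 2.1.0 to mm10, and counted them with featureCounts 2.0.1 on Ensembl GRCm38 exons. They deposited raw counts per gene, with the merged exon length (other than a measured value). The methods state reverse-stranded counting of proper pairs, whereas the command stored with the counts has neither option, so antisense genes cannot be told apart from their partners, mates may be counted separately, and counts are not independent molecules. The 37 mitochondrial genes are listed at 0.

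Counts were filtered (filterByExpr), TMM-normalized, and tested in the 4 kidney libraries with edgeR 4.0.16 (robust quasi-likelihood, Benjamini-Hochberg adjustment, R 4.3.3). The fits were also run on simulated counts with the same spread in both genotypes. The intervals were therefore not checked for the unequal spread of the WT and KO pairs. The methods name DESeq2, which was run as an alternative (1.42.0), as was limma-voom (3.58.1). Intervals use the SE from the fitted information, and 3 genes had none. Ratios between 2 libraries are log2 CPM with a prior count of 2 and have no test. GC content (17537 genes) and transcript length are those of the longest protein-coding transcript of a gene. Where none is protein-coding, its longest transcript was used. Other alternatives were size factors, filters, non-robust estimation, a joint fit of the 20 libraries, a replicate block, each library left out, and, chosen after seeing the data, a GC correction. Counting error was not compared with the spread between libraries gene by gene. It weighs most on genes with few reads, such as Myoc with 24, 25, 2, and 0.

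The members and gene lists were chosen with earlier results of these data known. Named by rule are Nsun6, every clock gene, the kidney markers, in each nephron or transporter list the genes of highest CPM per kb and of highest and lowest fold change, the 5 genes per direction with the smallest p whose genotypes did not overlap, the 15 per direction with the largest WT ratio at a mean WT CPM of 1 or more, and the 2 most abundant genes of other lists. Cfd, Ucp1, Gm10095, Acsm3, Slc12a1, Calb1, Scnn1a, Scnn1b, Scnn1g, Nphs1, Adipoq, Cidea, Nsun2, Alyref, and the genes with the smallest limits were chosen after their values were seen. Bisulfite data were not analysed here, and a few genes that the rule names are not reported here.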

Additional observations from a re-analysis of the deposited data

How the results depend on the processing

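The count of 0 DEGs in kidney held with every other tool, scaling, filter, and block tried, and changed only on leaving out a library, over which it ran from 1 to 2938. On leaving out each library in turn, kidney genes at an unadjusted p under 0.05 ran from 20 to 6365, genes inside 2-fold from 0 to 7253 (nephron 0 to 73, transporter 0 to 75, clock 0 to 11), and median log2 fold changes from 0.012 to 0.23 (nephron), -0.0041 to 0.18 (transporter), -0.30 to 0.74 (clock), and -0.0065 to 0.26 (solute carriers). In kidney, DESeq2, without the filter, put 622 of 28514 genes inside 2-fold (nephron 4, transporter 11, clock 0), 1 fit of all 20 libraries 5018 of 23159 (nephron 7, clock 5), the GC correction 3917 (24, 35, and 5, with a nephron median of -0.0049), a 99% interval 0 in all and in each of the 3 groups of lists, and no filter 18 nephron genes. At the unadjusted threshold, no filter gave 198 and the joint fit 353 genes, and the GC correction split 96 into 48 higher and 48 lower, or 50% higher in kidney against 63.4%.

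The replicate numbers were not taken to pair the samples. With 2 pairs, the differences within WT and KO correlated with r = 0.126 over 17550 genes. The replicate block gave 0 DEGs in kidney, 97 genes at the unadjusted threshold, 13 transporter genes inside 2-fold, and a transporter median of 0.15 (limma-voom also 0.15), and the block with GC correction gave 82 genes.

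For the WT pair in kidney, no filter gave 6681 and 3800 genes over 2-fold higher in WT replicate 1 and 2, against 4408 and 2143 with the main settings. Scaling without TMM factors gave 728 for WT replicate 2, against the same 2143. Genes in which WT replicate 1, KO replicate 1, or KO replicate 2 stood apart numbered 396, 43, and 57 with at least 10 counts, 1654, 1143, and 1896 with no filter, and 391, 34, and 66 with a prior count of 10. The GC correction left 1486 genes low in WT replicate 2. Of 172 genes named by rule, 45 changed sign without WT replicate 1, 65 without WT replicate 2, 22 without KO replicate 1 and 22 without KO replicate 2, 23 with the GC correction, 31 with the block, and 34 with limma-voom. Depth limits genes at or under the level of 3 counts.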

Other observations

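Adipocyte genes set KO replicate 2 apart from the other kidney libraries. All 12 tested had a lower fitted level in KO (median log2 fold change -1.29), and the median log2 ratio of KO replicate 1 over KO replicate 2 was 2.62. Adipoq (adiponectin) had 8.56, 10.1, 6.94, and 0.0797 CPM in the order of the report, Cfd (adipsin) had 27.6, 30.9, 25.8, and 0.399 CPM, and Cidea, of brown fat lipid droplets, had 4.91, 9.57, 1.34, and 0.159 CPM. The thermogenic uncoupler Ucp1 had 7.05, 16.6, 4.06, and 0 CPM. The most abundant gene of the list, Fabp4, which endothelium also expresses, had 138, 282, 148, and 185 CPM and did not share the pattern. KO replicate 2 was the lowest library for each of the first 4 genes, and their part in other differences was not tested.

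The summed level of the immunoglobulin list was higher in both KO kidneys than in both WT kidneys, and no gene of it was a DEG. It was 20.3, 45.8, 63.1, and 101 CPM. Igkc, the kappa constant region, had 3.84, 15.5, 27.5, and 32.8 CPM, and Igha, the IgA heavy chain, had 1.3, 3.95, 11.3, and 35.4 CPM (log2 fold change 3.16, SE 0.78, adjusted p = 1 by edgeR with Benjamini-Hochberg adjustment). Of 8 genes tested, 6 had a higher and 2 a lower fitted level in KO, and for 4 both KO libraries lay above both WT libraries (against 10.3% of all genes). Of 7 B cell genes tested, 7 had a lower fitted level in KO (median -0.30), but the KO pair lay below the WT pair for 1 (against 11.2% of all genes). The most abundant was Cr2 with 4.61, 4.60, 3.98, and 3.51 CPM. MHC class II genes summed to 238, 659, 512, and 671 CPM, with WT replicate 1 the low library. Exocrine pancreas genes were not tested and summed to 0.267 CPM in WT replicate 1 and 0 elsewhere, and of 12 adrenal genes 1 was tested and 6 had no read.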
